A study of Homo sapiens with 4 samples.

Results

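The genes described here encode the cyclin-dependent kinase (CDK) inhibitors, 8 genes chosen by symbol from the 38972 genes of an RNA-seq table of HEK293T cells. They are the CIP/KIP genes CDKN1A, CDKN1B and CDKN1C, the INK4 genes CDKN2A, CDKN2B, CDKN2C and CDKN2D, and CDKN3, which belongs to neither family and encodes a phosphatase that acts on CDKs. All 8 were listed, and all 8 reached the mean of 1 TPM (a transcript's share of its library, scaled to a common total and already corrected for transcript length) required for testing. HEK293T is an established human embryonic kidney line transformed with adenovirus DNA and carrying the large T antigen of SV40. Libraries labelled oeRNH1 came, by their labels, from cells made to overexpress RNase H1, which cuts the RNA strand of RNA-DNA hybrids, and libraries labelled oeFlag, the controls, from cells overexpressing the Flag epitope tag. There were 2 libraries of each kind, and the labels name no time point, clone, promoter or dose and do not say that replicates were separate cultures, so p-values measure only the spread between these libraries, which may be technical.

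CDK inhibitors are the brakes of the cell division cycle. INK4 proteins bind CDK4 and CDK6 and keep them from pairing with D-type cyclins, while CIP/KIP proteins bind assembled cyclin-CDK complexes, above all those of CDK2 with cyclins E and A. Active CDKs phosphorylate the retinoblastoma protein and so release E2F transcription factors, which start DNA replication. In cells with SV40 large T antigen the retinoblastoma protein is bound by the viral protein. CIP/KIP proteins are also controlled by ubiquitin-dependent breakdown, which a transcript level does not show.

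The library sums lay between 998901 and 998955 TPM, and 24568 to 24585 genes were above 0 in libraries labelled oeRNH1, against 23556 to 23621 in those labelled oeFlag. The depth of the libraries cannot be recovered from TPM, and values are given without counting intervals. RNASEH1, which codes for RNase H1 itself, was listed at 29.93 and 29.67 TPM in libraries labelled oeRNH1, against 32.09 and 32.8 TPM in those labelled oeFlag (log2 fold change -0.12 ± 0.06, SE, limma adjusted p = 0.260). This does not bear out the labels, and whether the RNASEH1 value includes transcripts of the construct is not stated in the labels, so each rise or fall described here goes by the labels alone. All 8 markers of the embryonic kidney line had a mean of at least 1 TPM, with 1 higher and 2 lower, and their summed level was 1100 to 1118 TPM in libraries labelled oeRNH1, against 1029 to 1048 TPM in those labelled oeFlag. VIM made up most of that sum, and without it the other 7 markers summed to 136 to 139 TPM in libraries labelled oeRNH1, against 160.5 to 162 TPM in those labelled oeFlag, the opposite direction. Of 8 markers of carcinoma epithelium 4 reached that mean and KRT7 was listed at 0 in every library, and their sum, nearly all from KRT8 and KRT18, both called higher, was 190 to 194 TPM in libraries labelled oeRNH1, against 160.6 to 161 TPM in those labelled oeFlag. CDH1 went the other way, at 1.13 and 1.23 TPM in libraries labelled oeRNH1, against 2.23 and 2.11 TPM in those labelled oeFlag. It was not called (limma adjusted p = 0.104), and the values of EPCAM overlapped between the groups. The part of these markers in the results was not tested. The markers of blood, with HBB listed at 0 in every library, summed to at most 5.37 TPM in any library, those of endothelium to at most 1.30 TPM and those of fibroblasts, nearly all COL1A1, to at most 19.7 TPM. As these are bulk samples, fewer cells that express a gene and less RNA per cell cannot be told apart.

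The sequences upstream of the start sites of the 4 inhibitor genes called in the limma test below, 3 higher and 1 lower, are shown here. Each line gives the 250 bases before a start site, read 5′ to 3′ on the strand of the gene, from RefSeq promoters on GRCh38.p14. Capitals mark GC boxes (GGGCGG, the motif of SP1 and KLF factors) and CCAAT boxes (CCAAT, the motif of NF-Y), on either strand. CDKN2A is shown at both of its annotated starts, the upstream one used by the transcript for the ARF protein and the downstream one by the transcript for p16.
CDKN1A, chr6:36678464-36678713, plus strand: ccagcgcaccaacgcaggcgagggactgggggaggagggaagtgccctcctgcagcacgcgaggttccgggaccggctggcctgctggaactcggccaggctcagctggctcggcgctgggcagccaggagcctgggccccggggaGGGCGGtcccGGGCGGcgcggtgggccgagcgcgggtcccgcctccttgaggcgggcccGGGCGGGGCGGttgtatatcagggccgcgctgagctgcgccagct
CDKN1B, chr12:12717118-12717367, plus strand: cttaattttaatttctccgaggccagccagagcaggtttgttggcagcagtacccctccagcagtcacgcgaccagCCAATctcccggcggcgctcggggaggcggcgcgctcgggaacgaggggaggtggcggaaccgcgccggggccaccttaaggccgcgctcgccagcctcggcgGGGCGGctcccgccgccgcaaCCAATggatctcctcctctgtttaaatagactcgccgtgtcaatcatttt
CDKN2D, chr19:10568980-10569229, minus strand: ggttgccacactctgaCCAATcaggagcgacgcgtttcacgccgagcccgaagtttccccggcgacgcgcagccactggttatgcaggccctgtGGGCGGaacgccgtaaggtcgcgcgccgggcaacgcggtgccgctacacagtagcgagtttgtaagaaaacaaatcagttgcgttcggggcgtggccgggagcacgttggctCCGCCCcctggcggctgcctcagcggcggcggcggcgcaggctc
CDKN2A, upstream start, chr9:21995325-21995574, minus strand: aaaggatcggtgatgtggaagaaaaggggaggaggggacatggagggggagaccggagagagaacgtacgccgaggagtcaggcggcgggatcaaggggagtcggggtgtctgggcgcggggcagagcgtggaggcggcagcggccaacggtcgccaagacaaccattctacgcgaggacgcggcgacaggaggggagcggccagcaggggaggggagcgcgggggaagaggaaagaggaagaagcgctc
CDKN2A, downstream start, chr9:21974858-21975107, minus strand: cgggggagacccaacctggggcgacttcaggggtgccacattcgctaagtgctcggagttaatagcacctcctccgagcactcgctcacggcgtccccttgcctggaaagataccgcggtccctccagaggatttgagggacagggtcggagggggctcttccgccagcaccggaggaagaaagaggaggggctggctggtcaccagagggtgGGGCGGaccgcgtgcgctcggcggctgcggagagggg

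The CDKN1A window held 4 GC boxes, of which the last 2 overlap, and no CCAAT box. The CDKN1B window held 1 GC box and 2 CCAAT boxes, and the CDKN2D window 2 GC boxes and 1 CCAAT box. Of the CDKN2A windows the downstream one held 1 GC box and the upstream one neither motif. Among all 35116 windows of this length, 42.6% held a GC box and 32.0% a CCAAT box. GC content was 76.4% for CDKN1A, 64.4% for CDKN1B, 67.6% for CDKN2D and 66.8% for each CDKN2A window, against a median of 58.0% over all windows. The TATA box (TATAAA), the E-box of MYC (CACGTG), the cyclic AMP response element (TGACGTCA) and a pair of E2F motifs (TTTCCCGC and TTTGGCGC), searched on both strands, were found in none of these 5 windows. In that order, 10.7%, 6.34%, 1.65%, 1.39% and 0.55% of all windows held them, so their absence from 5 windows says little. Among members not called, the CDKN2B window held 2 GC boxes, the CDKN3 window 2 CCAAT boxes and the CDKN2C windows from 0 to 5 GC boxes. Their GC content was 66.4%, 64.4% and from 45.6% to 77.2%, in that order. GC boxes, CCAAT boxes and a GC content above the median were thus not particular to the called genes. A match is a description of the letters and not a binding site, and binding was not measured.

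By its labels, the comparison asks how transcript levels differ between cells meant to overexpress RNase H1 and control cells. CDKN1A, CDKN1B and CDKN2D were higher in libraries labelled oeRNH1, by about 1.51-fold, 1.22-fold and 1.34-fold in mean TPM, and CDKN2A was lower at 0.841 times the oeFlag level. CDKN1C, CDKN2B, CDKN2C and CDKN3 did not pass the test. The count of 4 called of 8 stands beside 11.8% of all 15651 tested genes. By direction, 3 of 8 were higher, beside 6.30% of all tested genes, and 1 of 8 was lower, beside 5.54%. The test was limma on log2(TPM + 1), two-sided, with p-values adjusted over all tested genes by the Benjamini-Hochberg method and a threshold of 0.05. Log2 fold changes below are on that scale, on which the added 1 makes changes of low genes smaller than the ratio of their TPM, and their errors are standard errors (SE). The 2 groups of libraries did not overlap for any of the 8 genes, 6 higher and 2 lower, but neither did they for 60.7% of all tested genes, 31.3% higher and 29.4% lower. Over the 8 genes the median log2 fold change was 0.23, against 0.0035 over all tested genes, and the median size was 0.26, against 0.17. None of the 4 calls was kept when any one library was left out, which left 0 to 15 calls over the whole table, when low genes were not filtered, when genes were required only to be above 0 in some library, or when variances followed no intensity trend, although the sign of each gene's change was the same in every setting run.

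**Figure D1:**
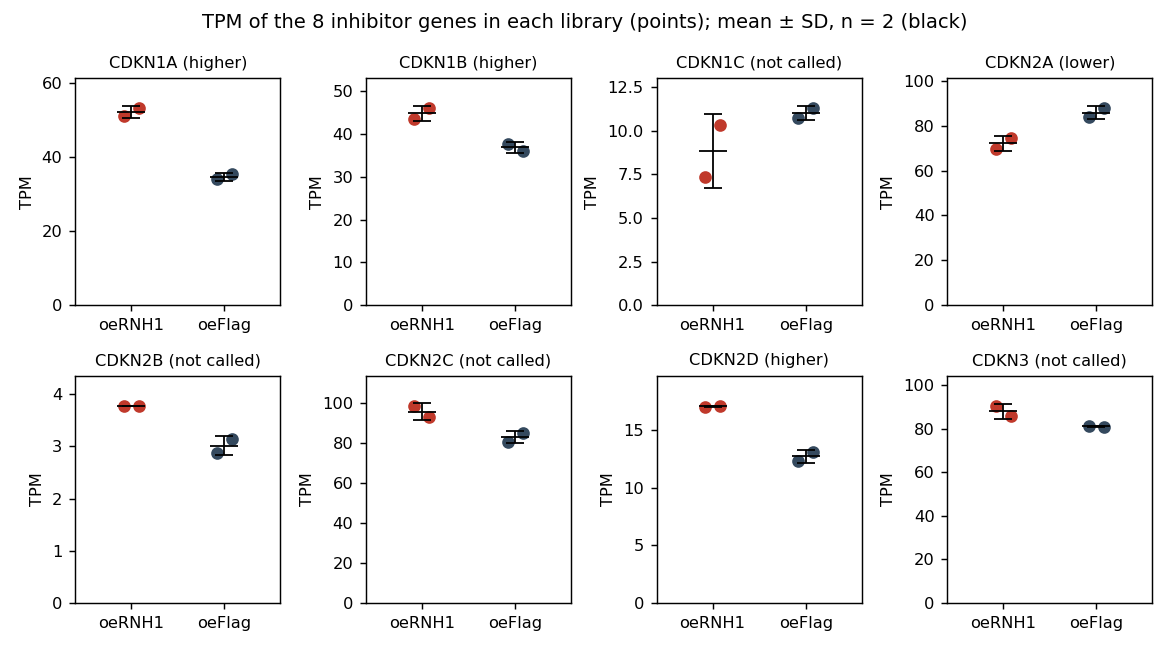
TPM (y axis, from 0) of each of the 8 inhibitor genes in libraries labelled oeRNH1 and oeFlag (x axis), with a point per library, the mean and SD over 2 libraries in black, and the limma call in each panel's title. The points of the groups do not overlap in any panel, and the smallest gap in TPM is that of CDKN1C, with 10.35 TPM in an oeRNH1 library and 10.74 TPM in an oeFlag library.

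CDKN1A encodes p21, the CIP/KIP inhibitor induced by growth factor and stress signals, which also binds the replication clamp PCNA. CDKN1A (ENSG00000124762, chromosome 6, 36676460 to 36687339, plus strand, by GENCODE release 29 for GRCh38) was listed at 51.07 and 53.29 TPM in libraries labelled oeRNH1, against 33.98 and 35.37 TPM in those labelled oeFlag. Both oeRNH1 libraries were high, and their distance from the oeFlag libraries was far larger than the distance within either group. The log2 fold change of CDKN1A was 0.58 ± 0.06 (95% interval 0.42 to 0.73, limma adjusted p = 0.00990), the largest in size and with the smallest p of the 8 genes. CDKN1A was called in 9 of 16 fits, the reported one included, and leaving out each library gave log2 fold changes from 0.55 to 0.61 with adjusted p from 0.0920 to 0.121. DINOL, a noncoding RNA that overlaps CDKN1A on the opposite strand in GENCODE, was listed at 0.66 and 0.69 TPM in libraries labelled oeRNH1, against 0.61 and 0.13 TPM in those labelled oeFlag, below the level required for testing.

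CDKN1B encodes p27, the CIP/KIP inhibitor that accumulates in resting cells and is broken down as cells enter S phase. CDKN1B (ENSG00000111276, chromosome 12, 12715058 to 12722371, plus strand) was listed at 43.65 and 46.11 TPM in libraries labelled oeRNH1, against 37.78 and 35.99 TPM in those labelled oeFlag. The log2 difference was 0.28 ± 0.07 (95% interval 0.12 to 0.43, limma adjusted p = 0.0473). The p lay close to the threshold. CDKN1B lost the call after GC correction, which removes each library's trend with transcript GC content (adjusted p = 0.0604), under quantile normalization (0.0637) and under median-of-ratios scaling (0.0574), with a log2 fold change of 0.26 in each.

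CDKN1C encodes p57, the CIP/KIP inhibitor of embryonic growth, expressed from the maternal copy in an imprinted domain. CDKN1C (ENSG00000129757, chromosome 11, 2883213 to 2885773, minus strand) was listed at 7.33 and 10.35 TPM in libraries labelled oeRNH1, against 10.74 and 11.3 TPM in those labelled oeFlag. The oeRNH1 replicates differed from each other by more than the second of them differed from either oeFlag library. A log2 fold change of -0.31 ± 0.16 did not pass (95% interval -0.69 to 0.08, limma adjusted p = 0.249), and was -0.08 without oeRNH1 replicate 1 and -0.53 without oeRNH1 replicate 2.

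CDKN2A encodes both p16, an INK4 inhibitor, and ARF, a protein that restrains MDM2, from transcripts with separate first exons. CDKN2A (ENSG00000147889, chromosome 9, 21967753 to 21995301, minus strand) was listed at 69.8 and 74.54 TPM in libraries labelled oeRNH1, against 83.68 and 87.89 TPM in those labelled oeFlag. It was the only one of the 8 genes called lower in the limma test (log2 fold change -0.25 ± 0.06, 95% interval -0.39 to -0.10, adjusted p = 0.0487). After GC correction the change was -0.16 and was not called (adjusted p = 0.1). The table has 1 value for the gene, so p16 and ARF transcripts were not separated.

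CDKN2B, beside it on chromosome 9, encodes p15, the INK4 inhibitor induced by TGF-beta. CDKN2B (ENSG00000147883, 22002903 to 22009363, minus strand) was the least abundant of the 8, at 3.77 and 3.78 TPM in libraries labelled oeRNH1, against 2.88 and 3.14 TPM in those labelled oeFlag. Its log2 fold change of 0.25 ± 0.14 did not pass (95% interval -0.09 to 0.60, limma adjusted p = 0.282). CDKN2A and CDKN2B share 31 stretches of 50 bases, which is 0.681% of those in CDKN2A transcripts and 0.765% of those in CDKN2B transcripts, and no other of the 8 genes shares such a stretch with another gene in GENCODE release 29. CDKN2B-AS1, the antisense RNA that overlaps both genes on the opposite strand, was listed at 4.31 and 5.44 TPM in libraries labelled oeRNH1, against 3.67 and 3.95 TPM in those labelled oeFlag (0.28 ± 0.15, limma adjusted p = 0.264). Whether strand was used in counting is not given in the sources used here, so the values of CDKN2B, CDKN2A and this antisense RNA are uncertain where they overlap.

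CDKN2C encodes p18, an INK4 inhibitor of CDK4 and CDK6. CDKN2C (ENSG00000123080, chromosome 1, 50960745 to 50974633, plus strand) was listed at 98.82 and 92.93 TPM in libraries labelled oeRNH1, against 80.86 and 85.28 TPM in those labelled oeFlag. The change of CDKN2C, 0.20 ± 0.06 on the log2 scale, missed the threshold (95% interval 0.06 to 0.34, limma adjusted p = 0.0713). It passed when only genes of at least 5 TPM were tested (adjusted p = 0.0489) and after GC correction (0.26, adjusted p = 0.0445).

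CDKN2D encodes p19, the INK4 inhibitor whose level varies through the cell cycle. CDKN2D (ENSG00000129355, chromosome 19, 10566462 to 10569059, minus strand) was listed at 17.02 and 17.09 TPM in libraries labelled oeRNH1, against 12.31 and 13.11 TPM in those labelled oeFlag. Both oeRNH1 libraries were close together and above both oeFlag libraries. Its log2 fold change was 0.40 ± 0.08 (95% interval 0.19 to 0.60, limma adjusted p = 0.0376), and like CDKN1A it was called in 9 of 16 fits. Of the other called genes, CDKN2A was called in 8 of 16 fits and CDKN1B in 6.

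CDKN3 encodes a dual-specificity phosphatase that removes the activating phosphate of CDK2. CDKN3 (ENSG00000100526, chromosome 14, 54396849 to 54420218, plus strand) was listed at 90.54 and 85.65 TPM in libraries labelled oeRNH1, against 81.31 and 80.83 TPM in those labelled oeFlag. The log2 change of CDKN3, 0.12 ± 0.05, did not pass (95% interval -0.01 to 0.25, limma adjusted p = 0.190), and the interval reaches 0.

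**Figure D2:**
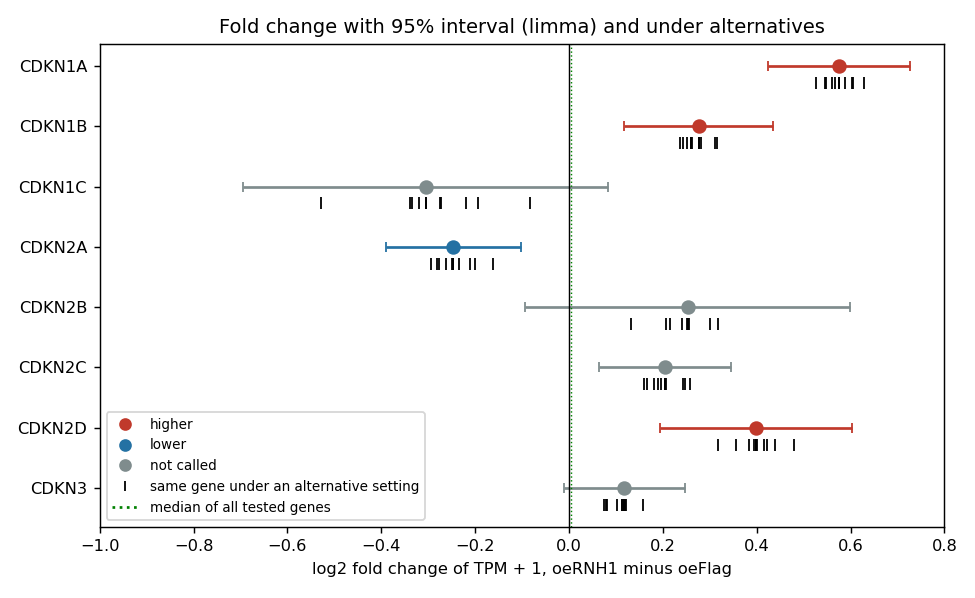
Log2 fold change of TPM + 1, oeRNH1 minus oeFlag (x axis), of each inhibitor gene (y axis), with its 95% interval from limma and colour for the call, and small ticks for the same gene under each alternative setting. The ticks of each gene lie on one side of 0, from 0.53 to 0.63 for CDKN1A, and those of CDKN1C spread from -0.53 to -0.08.

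As levels per length, CDKN2D, CDKN1C and CDKN2B, in that order, were the lowest of the 8 genes in every library. In the libraries labelled oeRNH1 the order of TPM was CDKN2C, CDKN3, CDKN2A, CDKN1A, CDKN1B, CDKN2D, CDKN1C and CDKN2B, the same in both. In the libraries labelled oeFlag CDKN2A was first, CDKN2C and CDKN3 followed in an order that differed between the replicates, and CDKN1B stood before CDKN1A. CDKN2C and CDKN3 differed in libraries labelled oeRNH1 by slightly more than the sum of their SDs (95.9 ± 4.17 and 88.1 ± 3.46 TPM, SD, n = 2), and CDKN1A and CDKN1B by more (52.2 ± 1.57 and 44.9 ± 1.74 TPM). In libraries labelled oeFlag the values of CDKN2C overlapped those of both CDKN2A and CDKN3, and CDKN1A and CDKN1B differed there by less than the sum of their SDs (34.7 ± 0.983 and 36.9 ± 1.27 TPM, SD, n = 2). Mean TPM over the 4 libraries placed CDKN2C, CDKN3 and CDKN2A at the 88.4th, 87.6th and 86.7th percentile of tested genes, CDKN1C at the 40.5th and CDKN2B at the 21.7th.

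The make-up of each family differed with the labels. The shares of a family make up a whole, so the share of a gene cannot move without another. CDKN1A was 50.04% and 48.6% of the summed CIP/KIP TPM in libraries labelled oeRNH1, against 41.2% and 42.8% in those labelled oeFlag. The ratio of CDKN1A to CDKN1B TPM was 1.17 and 1.16 in libraries labelled oeRNH1, against 0.899 and 0.983 in those labelled oeFlag, above 1 under one label and below 1 under the other. The CIP/KIP sum was 102 and 109.8 TPM in libraries labelled oeRNH1, against 82.5 and 82.7 TPM in those labelled oeFlag.

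Among INK4 genes the sum overlapped between the groups while the shares within it did not. Such non-overlap was common, found for the values of 60.7% of all tested genes. These shares too depend on each other, and CDKN2C itself was not called. The INK4 sum was 189 and 188 TPM in libraries labelled oeRNH1, against 179.7 and 189 TPM in those labelled oeFlag. CDKN2A made up 36.9% and 39.6% of it in libraries labelled oeRNH1, against 46.6% and 46.4% in those labelled oeFlag. CDKN2C made up 52.2% and 49.3% in libraries labelled oeRNH1, against 45.0% in each labelled oeFlag (44.99 and 45.02). CDKN2D made up 8.99% and 9.07% in libraries labelled oeRNH1, against 6.85% and 6.92% in those labelled oeFlag. INK4 proteins bind the kinases CDK4 and CDK6. The INK4 sum over the summed TPM of these kinases was 1.04 and 1.08 under the oeRNH1 label, against 0.958 and 0.961 under oeFlag. The denominator, the CDK4 and CDK6 sum, was 182 and 174 TPM under the oeRNH1 label, against 188 and 197 TPM under oeFlag. Neither kinase gene was called (limma adjusted p = 0.278 for CDK4 and 0.102 for CDK6). These sums and ratios are given as values, since an exact permutation test of 2 libraries against 2 cannot go below a two-sided p of 0.333.

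**Figure D3:**
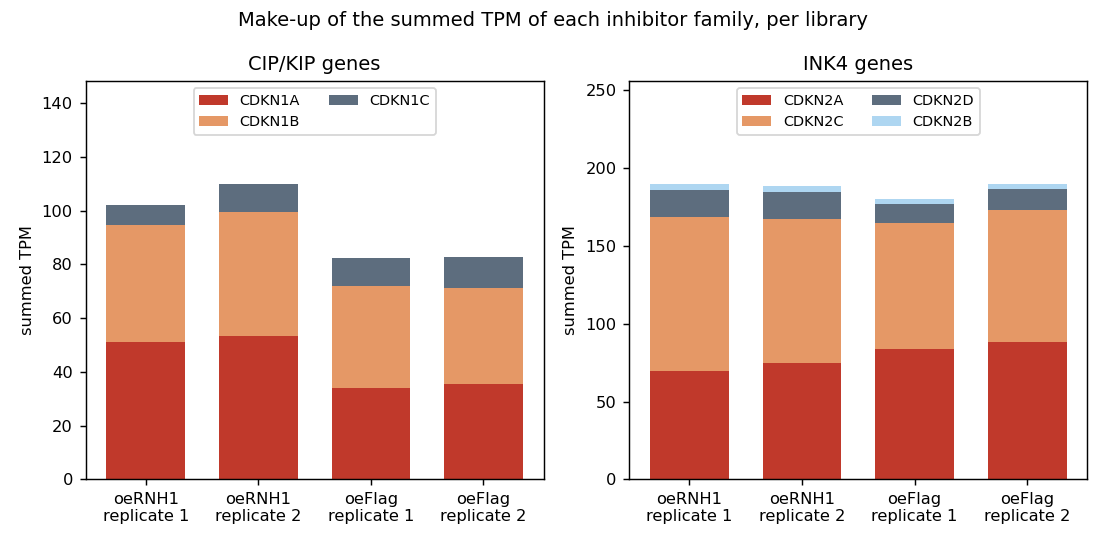
Summed TPM (y axis, from 0) of the CIP/KIP genes at left and the INK4 genes at right in each library (x axis), stacked by gene. The CIP/KIP bars reach 102 and 109.8 TPM in libraries labelled oeRNH1 and 82.5 and 82.7 TPM in those labelled oeFlag, while the INK4 bars lie between 179.7 and 189 TPM with a smaller CDKN2A segment in libraries labelled oeRNH1.

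Among the cyclins and kinases that the inhibitors act on, 2 of 16 tested genes rose, 0 fell and 14 were not called, a share near that of all genes, and their median was 0.07 on the log2 scale. The genes that rose were CCNE2, a cyclin of the G1/S transition (39.33 and 38.84 TPM in libraries labelled oeRNH1, against 23.37 and 20.22 TPM in those labelled oeFlag, log2 fold change 0.82 ± 0.09), and CDK1, the mitotic kinase (0.20 ± 0.05). CDK2 (0.18 ± 0.05, limma adjusted p = 0.0821) and CCNA1 (0.97 ± 0.30, adjusted p = 0.0896) did not pass. CDK4, at 167.68 and 160.28 TPM in libraries labelled oeRNH1, against 169.33 and 180.98 TPM in those labelled oeFlag, did not pass either.

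Other genes that set CDK phosphorylation had 1 higher, 1 lower and 5 not called of 7, with a median of -0.03. The share called was 28.6%, beside 11.8% of all tested genes. CDC25A, a phosphatase that activates CDK2, was higher by 0.46 ± 0.05 and PKMYT1, a kinase that inhibits CDK1, was lower (-0.29 ± 0.06). WEE1 (0.24 ± 0.06, limma adjusted p = 0.0575) and CDC25C (0.21 ± 0.06, adjusted p = 0.0700) did not pass. Pocket proteins and E2F/DP factors had 2 higher, 2 lower and 9 not called of 13, with a median log2 change of 0.18. In that list 30.8% were called, beside the same 11.8%. E2F2 (0.46 ± 0.08) and RB1, the retinoblastoma gene (0.32 ± 0.07), rose. RBL2, the pocket protein p130 of resting cells (-0.34 ± 0.06), and E2F4, its usual partner (-0.26 ± 0.06), fell.

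Genes for the breakdown of the inhibitors had 2 higher, 1 lower and 12 not called of 15, with a median of 0.02. The share called was 20.0%, beside 11.8% of all tested genes. DTL, the substrate receptor of the ligase that marks p21 at replication forks, rose by 0.34 ± 0.05 (70.21 and 68.5 TPM in libraries labelled oeRNH1, against 54.57 and 54.36 TPM in those labelled oeFlag), and SKP1, the adaptor of SCF ligases, by 0.19 ± 0.04. RNF123, a cytoplasmic ligase for p27, fell to 18.15 and 20.46 TPM in libraries labelled oeRNH1, against 27.69 and 28.14 TPM in those labelled oeFlag (-0.51 ± 0.08). SKP2, the SCF receptor for p27, was listed at 58.57 and 52.06 TPM in libraries labelled oeRNH1, against 65.35 and 65.19 TPM in those labelled oeFlag, and did not pass (-0.24 ± 0.07, limma adjusted p = 0.0808).

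Transcription and chromatin regulators of the inhibitor genes had 3 higher, 2 lower and 26 not called of 31, with a median of 0.11. The share called was 16.1%, beside 11.8% of all tested genes. MYC, which represses CDKN1A and CDKN2B together with ZBTB17 (MIZ1), was listed at 31.3 and 29.37 TPM in libraries labelled oeRNH1, against 80.01 and 77.06 TPM in those labelled oeFlag (-1.34 ± 0.06). MEN1, which encodes menin, fell (-0.33 ± 0.06), and KMT2A, the methyltransferase with which menin activates CDKN1B and CDKN2C, rose (0.31 ± 0.06). SUZ12, a subunit of Polycomb repressive complex 2, which represses the CDKN2A locus, rose by 0.28 ± 0.06. The remaining higher gene, KLF4, an activator of CDKN1A, is named here after its values were seen (0.64 ± 0.15, limma adjusted p = 0.0480).

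The 9 tested genes near CDKN2A and CDKN1C on chromosomes 9 and 11 had 2 higher, 0 lower and 7 not called. Both higher genes lie on chromosome 11, as do most of the 9. The share called was 22.2%, beside 11.8% of all tested genes. PHLDA2, an imprinted growth repressor that like CDKN1C is expressed from the maternal copy, was listed at 19.45 and 22.46 TPM in libraries labelled oeRNH1, against 10.13 and 10.87 TPM in those labelled oeFlag (0.93 ± 0.10), and CARS1 rose by 0.26 ± 0.05. OSBPL5 (-0.56 ± 0.15, limma adjusted p = 0.0678) and NAP1L4 (0.12 ± 0.04, adjusted p = 0.101) did not pass. KCNQ1OT1, the noncoding RNA of that imprinted domain, was at 0.51 TPM in both libraries labelled oeRNH1, against 0.45 and 0.42 TPM in those labelled oeFlag, below the level required for testing.

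**Figure D4:**
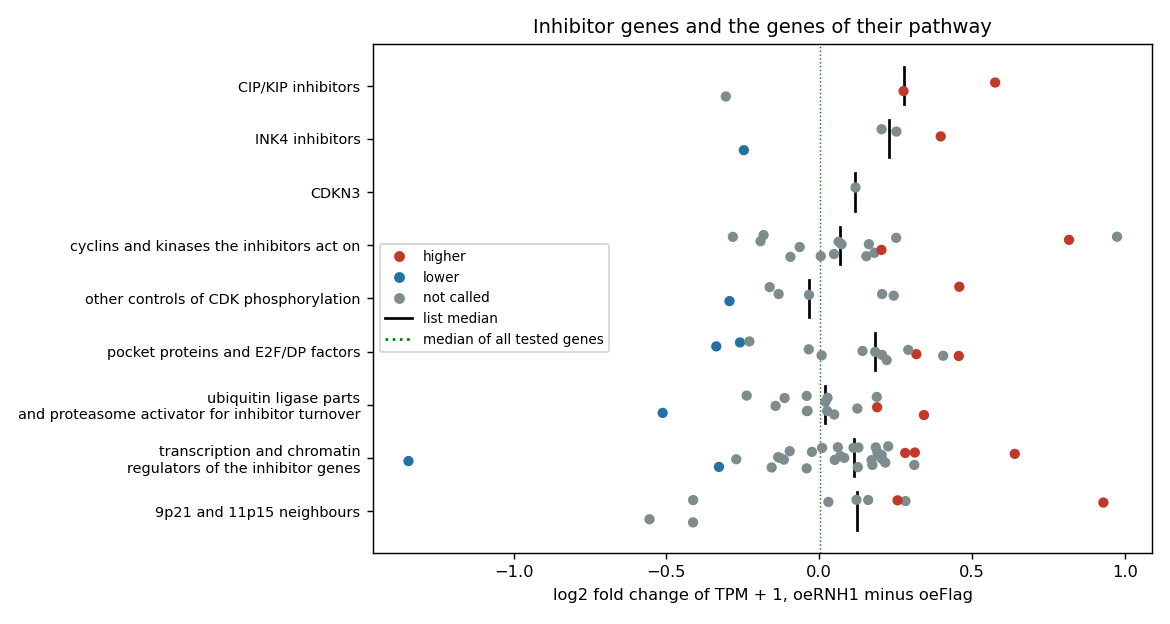
Log2 fold change of TPM + 1, oeRNH1 minus oeFlag (x axis), of every tested gene in the inhibitor families and in 6 lists of their pathway (y axis), coloured by the limma call, with list medians as black bars and the median of all tested genes as a dotted line. The lowest point is MYC at -1.34, and the highest called points are PHLDA2 at 0.93 and CCNE2 at 0.82.

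The genes whose values over the 4 libraries were most like those of a called inhibitor were ranked by the Euclidean distance between log2(TPM + 1) values, each as a deviation from the gene's own mean, among 11238 other genes of at least 5 TPM. For CDKN1A they were RASSF1, a tumour suppressor of the RAS association family (distance 0.00978), PSTK (0.0371) and NEU1 (0.0371). For CDKN1B they were SYNRG (0.0128), NSFL1C (0.0166) and SLU7 (0.0171). For CDKN2A they included MSH3 (0.0129) and DUS3L (0.0209), and for CDKN2D they were RBM34 (0.0130), KANSL2 (0.0223) and IL6R (0.0224). RASSF1 was listed at 46.52 and 48.78 TPM in libraries labelled oeRNH1, against 30.84 and 32.38 TPM in those labelled oeFlag, close to CDKN1A in level as well as in pattern. With 4 libraries such a likeness describes little more than the size of the difference and the order of the replicates.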

How the data were processed

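The authors deposited 1 table of TPM for 2 libraries labelled oeRNH1 and 2 labelled oeFlag, made from TRIzol RNA with an mRNA library kit, per the labels' protocols. Per the submitters' processing notes, STAR and hg38 were used. Not given in the sources used here are the quantification program, versions, annotation release and strand setting. Groups came from sample titles. Genes averaging 1 TPM or more across all 4 libraries entered the test as log2(TPM + 1), with limma 3.58.1 in R 4.3.3 (group term, moderated variances with an intensity trend) and Benjamini-Hochberg adjustment. The procedure was tested on simulated data, with noise drawn from the fitted variance prior. That noise model was chosen after a first version, with each gene's own moderated variance, gave a larger share of false calls than the threshold allows, so the share of false calls in these libraries may be above the nominal one, which bears most on the calls near the threshold, CDKN1B and CDKN2A. The members, lists and tests were chosen with earlier results of these data known. The text names all 8 members, up to 4 genes with the smallest p from each of 6 lists, and the 3 genes most like each called member, and any other gene named was chosen after its values were seen. A few results are not reported here. Alternatives were pseudocounts of 0.1 and 5, no filter, a minimum mean of 5 TPM, quantile and median-of-ratios normalization, other variance priors, the replicate number as a block, GC correction (spline with 4 degrees of freedom on the longest transcript's GC content, known for 97.9% of tested genes), leaving out each library and, added after seeing the data, only genes above 0 in some library. Gene spans came from GENCODE release 29 (GRCh38). Promoters, found for 7 members, came from RefSeq on GRCh38.p14. Figures were drawn with matplotlib 3.10.9.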

Additional observations from a re-analysis of the deposited data

How the results depend on the processing

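Each member's fold change kept its sign in every setting run, CDKN2B not being tested at a minimum mean of 5 TPM. Against 1853 genes and 4 members called in the limma test reported, 414 genes and 0 members were called with no filter on low values, and 1 gene and 0 members with no intensity trend. The unfiltered count turned on genes at 0 in every library: leaving only those out, an alternative chosen after seeing the data, gave 0 genes and 0 members. At an unadjusted p under 0.05 stood 5 members in the reported test (31.3% of all tested genes), 5 with no filter (14.2%), 5 with no intensity trend (27.7%) and 6 with genes at 0 everywhere left out (20.0%). Members that lost the call in these fits were CDKN1A (0.58), CDKN1B (0.28), CDKN2A (-0.25) and CDKN2D (0.40), with fold changes unmoved. CDKN1B also lost it under quantile normalization, median-of-ratios scaling and GC correction (0.26 in each), and CDKN2A after GC correction (-0.16). CDKN2C gained it with a minimum mean of 5 TPM (0.20) and after GC correction (0.26). The cause of these losses and gains was not tested. Leaving out each library gave 0 to 15 called genes and 0 called members, with 4 to 7 members at an unadjusted p under 0.05, beside 21.5% to 25.8% of all tested genes, and each such fit leaves 1 library in a group, assumed to vary like the other group. Fold changes then ran from 0.55 to 0.61 for CDKN1A, 0.24 to 0.31 for CDKN1B, -0.29 to -0.20 for CDKN2A and 0.36 to 0.44 for CDKN2D. The difference in summed INK4 TPM was 4.30 and ran from -0.545, without oeFlag replicate 1, to 9.14, without oeFlag replicate 2. With the replicate block 2442 genes and 4 members were called. Deviations of same-numbered libraries correlated at 0.0307 over the tested genes, and the labels do not say whether such libraries were prepared together. TPM keeps no depth, which limits what can be said of CDKN2B and CDKN1C.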

Other observations

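CDKN2AIP, which encodes a protein that binds the ARF product of CDKN2A and is itself no CDK inhibitor, is given here after its values were seen. It was listed at 30.89 and 31.18 TPM in libraries labelled oeRNH1, against 20.54 and 18.75 TPM in those labelled oeFlag (log2 fold change 0.64 ± 0.08, SE, limma adjusted p = 0.0119). The related gene CDKN2AIPNL was listed at 32.62 and 33.07 TPM in libraries labelled oeRNH1, against 33.46 and 33.81 TPM in those labelled oeFlag (-0.03 ± 0.06, adjusted p = 0.753). The ratio of CDKN2A to CDKN2B TPM was 18.5 and 19.7 in libraries labelled oeRNH1, against 29.1 and 27.99 in those labelled oeFlag, and CDKN2B itself did not pass the test.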
